A study of Mus musculus with 8 samples.

Results

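Methyl-CpG readers are the proteins through which methylated DNA is recognised, and their RNA was followed here in mouse AtT-20 cells, a line of pituitary corticotropes, the cells that produce Pomc, the precursor of ACTH. The 9 genes were taken by name, with earlier results of these data known, and no measured value enters the rule: the MBD family genes Mbd1, Mbd2, Mbd3, Mbd4, Mbd5 and Mbd6, and the zinc finger genes Zbtb33, Zbtb38 and Zbtb4. They are 9 of 55401 genes listed, and each had 1 row per library. All 8 libraries come from cells with the genotype ER-Pax7, which carry a Pax7 protein that tamoxifen activates. Groups of 2 libraries were taken after 0, 24, 48 and 72 h of tamoxifen. The labels give neither a vehicle group nor whether the line is 1 clone, so ER-Pax7 activity, tamoxifen itself and hours in culture cannot be told apart. Whether the 2 replicates of a time came from separate cultures is not stated, and p-values therefore cover library-to-library spread that could be technical only.

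In mammals, methylation of cytosine in CpG pairs is read by several protein families. The MBD domain of Mbd1, Mbd2 and Mbd4 binds methylated CpG. Mbd3 carries the same fold but lacks the selective binding, and Mbd2 and Mbd3 sit in alternative forms of NuRD, a complex that joins nucleosome remodelling to histone deacetylation. Mbd5 and Mbd6 are counted in the family by their domain, are not known for selective binding of methylated DNA, and associate with the PR-DUB histone H2A deubiquitinase. Kaiso (Zbtb33) and its relatives Zbtb4 and Zbtb38 recognise methylated DNA through zinc fingers and recruit corepressors. Pax7 opens chromatin in pituitary melanotropes, and the study, by its title, addresses how it drives loss of DNA methylation.

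CpG, the letters these proteins read, was counted at the readers' own starts. RefSeq promoter windows (GRCm38.p6, 300 bases, from 250 before to 50 after a start) matched 7 of the 9 genes: Mbd3, Mbd4, Mbd5, Mbd6, Zbtb33, Zbtb38 and Zbtb4. The window nearest to the gene start of the deposited files held 22, 25, 19, 28, 34, 8 and 22 CpG in that order, against a median of 7 over 32851 windows. For Zbtb38 that window lies 21156 bases from the start in the files, so it describes another start. Mbd5, Mbd6 and Zbtb38 have further windows, with 4 CpG for Mbd5, 44 for Mbd6, and 25 and 41 for Zbtb38. Over all 11 reader windows the ratio of observed to expected CpG was at least 0.6 in 10 (the further Mbd5 window was at 0.302), and it was so in 35.8% of all windows. The upstream 250 bases are shown for the reader with the highest signal (Mbd3), the one with an interval that left out 0 (Mbd4) and the one with the lowest signal (Zbtb4), 5′ to 3′ on the gene's strand, with each CpG in capitals. They span chr10:80399532-80399781 (minus strand), chr6:115853342-115853591 (minus strand) and chr11:69765662-69765911 (plus strand) and hold 14, 22 and 13 CpG.
Mbd3: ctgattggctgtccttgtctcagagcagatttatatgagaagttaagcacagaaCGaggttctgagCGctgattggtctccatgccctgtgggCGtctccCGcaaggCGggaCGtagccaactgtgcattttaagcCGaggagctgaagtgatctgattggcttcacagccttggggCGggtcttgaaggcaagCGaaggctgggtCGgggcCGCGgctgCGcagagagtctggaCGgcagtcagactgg
Mbd4: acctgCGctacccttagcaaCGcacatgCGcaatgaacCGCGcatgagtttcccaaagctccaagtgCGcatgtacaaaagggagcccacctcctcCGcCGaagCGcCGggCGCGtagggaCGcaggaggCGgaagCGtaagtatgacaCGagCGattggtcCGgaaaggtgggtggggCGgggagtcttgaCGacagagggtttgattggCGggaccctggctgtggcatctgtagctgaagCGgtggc
Zbtb4: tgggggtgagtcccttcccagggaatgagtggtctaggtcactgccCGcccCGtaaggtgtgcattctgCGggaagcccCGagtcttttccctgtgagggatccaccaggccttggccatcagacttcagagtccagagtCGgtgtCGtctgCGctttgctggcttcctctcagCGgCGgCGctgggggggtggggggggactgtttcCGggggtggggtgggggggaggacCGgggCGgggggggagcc
The Kaiso site TCCTGCNA, searched on both strands, was found in 1 of the 11 windows (Mbd3) and in 5% of all windows. CGCG, which reads the same on both strands and cannot overlap the Kaiso site, was found in 7 of the 11 (those of Mbd3, Mbd4, Mbd6 and Zbtb33 and the further Zbtb38 windows) and in 38% of all windows. These matches describe letters, not binding.

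RNA of all 9 readers was present in every library, at levels spanning 7.10-fold between the highest and the lowest. The value is a signal, read here as the authors' normalized mean read coverage over a gene's exons, and on that reading is per length. The labels do not state its scaling rule, and the comparison of levels between genes rests on this reading. Over the 8 libraries the mean signal was 4.48 for Mbd3, 4.20 for Mbd2, 2.71 for Mbd6, 2.47 for Mbd1, 2.01 for Zbtb33, 1.57 for Zbtb38, 1.30 for Mbd5, 1.06 for Mbd4 and 0.631 for Zbtb4. By this signal the NuRD readers stood highest and the methyl-binding glycosylase Mbd4 and Zbtb4 lowest. The mean runs over all merged exons, so exons that are not used would lower it. Merged exons held 1987 bases in Mbd3 and 19632 in Mbd5, while Mbd4, with 5280, lay below Mbd5. The part of exon length in the order was not tested. Ranges over libraries overlapped between Mbd3 and Mbd2, between Mbd6 and Mbd1 and between Zbtb38 and Mbd5, so these neighbours are not separated by their ranges. Within libraries, Mbd3 exceeded Mbd2 in 6 of 8, Mbd6 exceeded Mbd1 in 7 of 8 and Zbtb38 exceeded Mbd5 in 8 of 8. The ranges of the other neighbours in the order did not overlap. Among the 9606 genes tested, with a median signal of 2.65, Mbd3 stood at the 70.9th and Mbd4 at the 2.7th percentile of level.

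**Figure D1:**
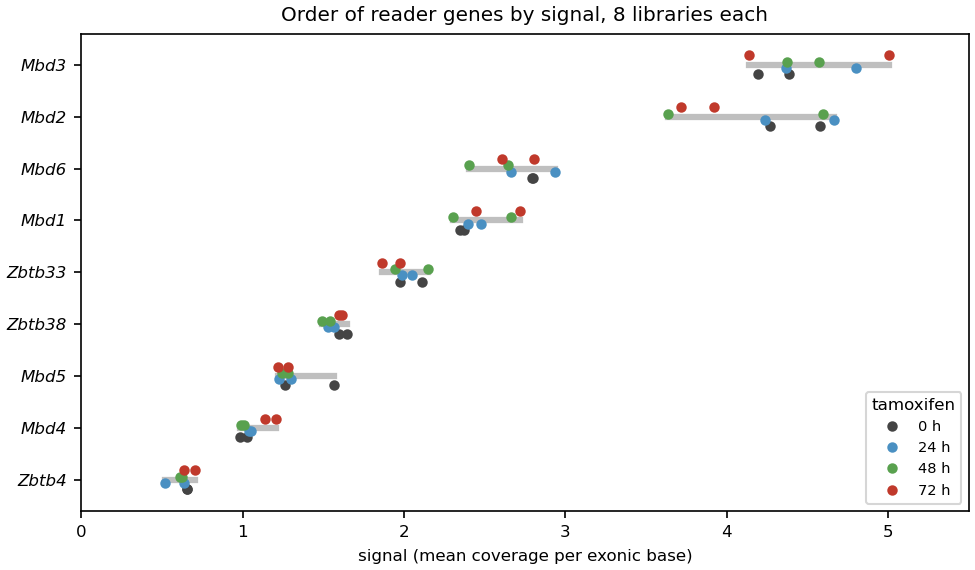
Signal (mean coverage per exonic base, horizontal axis) of each reader gene, ordered by its mean, with 1 point per library coloured by hours of tamoxifen and a grey bar from lowest to highest library. Mbd3 and Mbd2 lie above all other readers, between 3.64 and 5.003, and Zbtb4 lies below all others, between 0.520 and 0.708.

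No reader passed the test at any time, and the intervals of the differences were narrow. With limma on log2(signal + 1), adjusted over the 9606 genes whose mean signal reached 1, 0 of the 8 readers tested passed an adjusted p of 0.05 at any time. Over all genes 0.229% passed at 24 h, 0.552% at 48 h and 2.01% at 72 h, 0.344% in the F test over all times and 1.96% in the trend over hours. Of 24 intervals (95%) for a difference from 0 h, 23 held 0 and 24 lay inside a 1.5-fold change, with the outermost bounds at 0.765 and 1.204-fold. These are folds of signal + 1, which understate changes of low genes. Zbtb4 lies below the signal filter. A second limma fit took in genes whose mean reached 0.1 and added 0.1 before the log (17871 genes, called the lower floor). It held all 9 readers, and again 0 passed. In that fit 0.162%, 0.548% and 1.57% of all genes passed at 24, 48 and 72 h, 0.353% in the F test and 1.27% in the trend. Its 27 reader intervals all lay inside 1.5-fold, between 0.723 and 1.30-fold, and 26 held 0.

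At an unadjusted p under 0.05 in the first fit, 1 of 24 reader differences passed (Mbd4 at 72 h), against 13.2%, 10.5% and 15.7% of all genes at 24, 48 and 72 h. The median log2 difference of the 8 readers was 0.0035, -0.032 and -0.021 at 24, 48 and 72 h, beside 0.014, 0.0043 and 0.0079 over all genes tested. Libraries did not overlap with 0 h for 3 of 8 readers at 24 h (Mbd1 and Mbd4 higher, Zbtb38 lower), 2 at 48 h (Mbd6 and Zbtb38 lower) and 3 at 72 h (Mbd1 and Mbd4 higher, Mbd2 lower). The same separation held for 42.2%, 46.3% and 49.8% of all genes tested, so separation of 2 libraries from 2 is not particular to the readers.

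**Figure D2:**
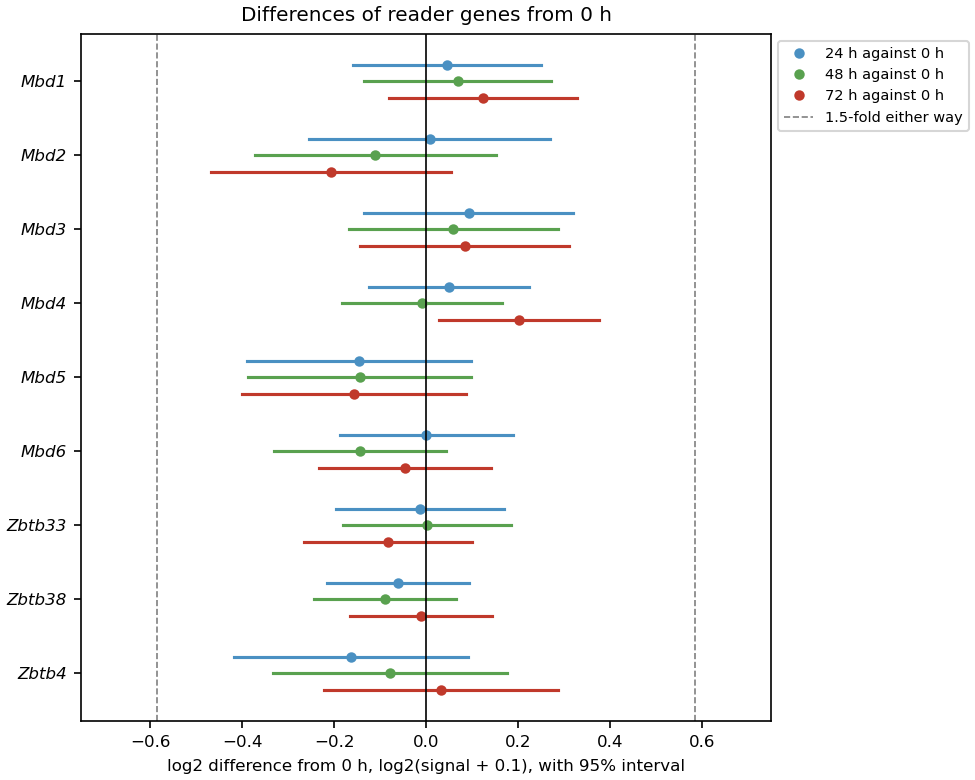
Log2 difference of each reader from 0 h (horizontal axis, limma on log2(signal + 0.1)) with its 95% interval, at 24, 48 and 72 h of tamoxifen, and dashed lines at 1.5-fold. All 27 intervals lie inside the dashed lines, and the one that leaves out 0 is Mbd4 at 72 h.

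Mbd2, the methyl-binding subunit of its form of NuRD, read 4.58 and 4.27 at 0 h, 4.67 and 4.24 at 24 h, 3.64 and 4.60 at 48 h, and 3.92 and 3.72 at 72 h. Both 72 h libraries lay below both 0 h libraries, while the 48 h libraries held the lowest value and one of the higher ones. The mean was 4.42 ± 0.218 (SD, n = 2) at 0 h and 3.82 ± 0.146 (SD, n = 2) at 72 h, a ratio of 0.863. On log2(signal + 1) the difference was -0.17 (95% interval -0.39 to 0.046, limma adjusted p = 0.436). The slope was -0.061 per 24 h on the log2 scale (limma adjusted p = 0.338), the smallest adjusted p of any reader in that test. On log2(signal + 1) the residual spread of Mbd2 was above that of 83.5% of genes tested, with its level at the 68.9th percentile. This scale understates the spread of low genes.

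Mbd3, the alternative NuRD subunit, read 4.19 and 4.39 at 0 h, 4.80 and 4.37 at 24 h, 4.57 and 4.37 at 48 h, and 5.003 and 4.14 at 72 h. The gene lies on chromosome 10 (GRCm38, 80392539 to 80399550, minus strand, 1987 exonic bases). Its highest and lowest values both came from 72 h, so the times overlap throughout. The lower-floor fold at 72 h was 1.06 (95% interval 0.905 to 1.24). The ratio of Mbd2 to Mbd3 signal, within a library, was 1.09 and 0.974 at 0 h, 0.972 and 0.971 at 24 h, 0.796 and 1.05 at 48 h, and 0.784 and 0.898 at 72 h. Mean ratios were 1.03 ± 0.0836 at 0 h and 0.841 ± 0.0807 at 72 h (SD, n = 2). An exact two-sided permutation test gave p = 0.333 at 72 h, which is the smallest p that 2 against 2 libraries can give, so this comparison could not pass at 0.05.

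Mbd4, a thymine glycosylase that removes the T of a T:G mismatch left by deaminated methylcytosine, was the reader nearest to a call. It read 1.03 and 0.987 at 0 h, 1.04 and 1.05 at 24 h, 0.989 and 1.01 at 48 h, and 1.14 and 1.21 at 72 h. Both 72 h libraries were above all 6 others, the 24 h libraries lay just above 0 h, and the 48 h libraries overlapped with it. The mean was 1.01 ± 0.0276 at 0 h and 1.17 ± 0.0489 at 72 h (SD, n = 2), a ratio of 1.17. The difference of 0.11 on log2(signal + 1) had an unadjusted p of 0.035 and a limma adjusted p of 0.276. The lower-floor fold was 1.15 (95% interval 1.02 to 1.30, limma adjusted p = 0.281). Mbd4 lies on chromosome 6 (GRCm38, 115840697 to 115853371, minus strand), and 264 of its 5280 exonic bases (5.0%) are shared with the antisense gene Gm44206. The span of Gm44206, introns included, holds 34.64% of them. Gm44206 read 0.914 and 0.893 at 0 h, 1.13 and 1.07 at 24 h, 0.984 and 0.966 at 48 h, and 1.17 and 1.04 at 72 h, so it was as high at 24 h, when Mbd4 was at 1.04 and 1.05, as at 72 h. Strand use is not given, and its part in the Mbd4 values was not tested.

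**Figure D3:**
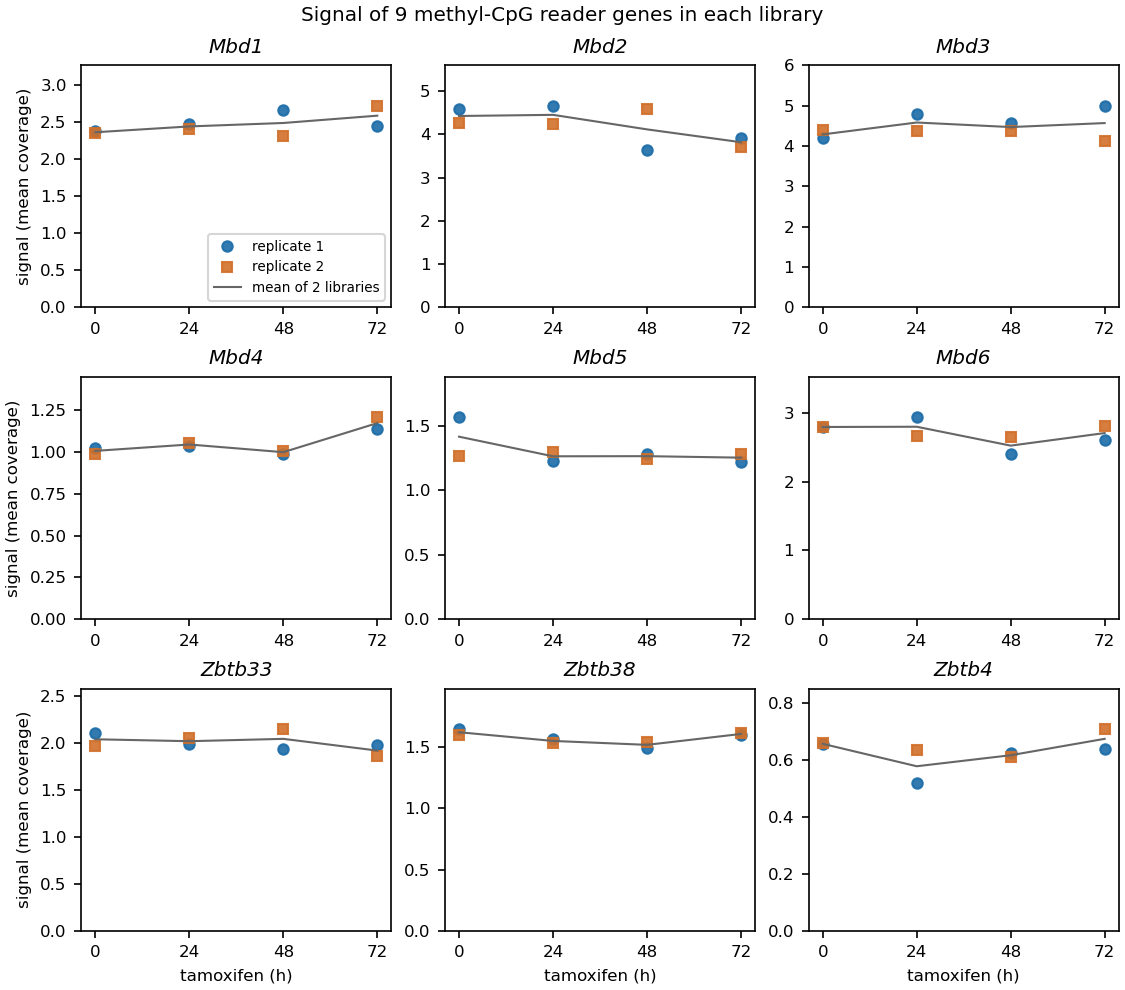
Signal (mean coverage, vertical axis from 0) against hours of tamoxifen for each reader, with 1 point per library, circles and squares for replicate numbers, and a line through the means of 2 libraries. Mbd4 is highest in both 72 h libraries (1.14 and 1.21), and Mbd2 is lower in both (3.92 and 3.72) than at 0 h (4.58 and 4.27).

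Mbd1, a repressor that binds methylated CpG and partners the Setdb1 methyltransferase, lies on chromosome 18, as does Mbd2. It read 2.37 and 2.35 at 0 h, 2.48 and 2.40 at 24 h, 2.66 and 2.31 at 48 h, and 2.45 and 2.72 at 72 h. Both 72 h libraries stood above 0 h, and the 48 h libraries reached below it. The lower-floor fold at 72 h was 1.09 (95% interval 0.946 to 1.26, limma adjusted p = 0.59).

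Mbd5 and Mbd6, the PR-DUB-associated members, showed different spreads. Mbd5 (chromosome 2, 48949508 to 49325405, plus strand) read 1.56 and 1.26 at 0 h and between 1.22 and 1.30 in the 6 later libraries. It shares 136 exonic bases (0.69%) with Orc4. Its higher 0 h value came from replicate 1 alone, and without that library the log2 difference at 24 h moved from -0.091 to -0.0017. Mbd6 (chromosome 10, 127281956 to 127289018, minus strand) read 2.80 in both 0 h libraries, 2.94 and 2.66 at 24 h, 2.40 and 2.65 at 48 h, and 2.61 and 2.81 at 72 h. Both 48 h libraries lay below both 0 h libraries, at a lower-floor fold of 0.905 (95% interval 0.795 to 1.03, limma adjusted p = 0.63).

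Zbtb33, which encodes Kaiso, read 2.11 and 1.97 at 0 h, 1.99 and 2.05 at 24 h, 1.94 and 2.15 at 48 h, and 1.98 and 1.87 at 72 h. Each later time overlapped with 0 h, and both 72 h libraries lay below both 24 h libraries. The gene lies on chromosome X (GRCm38, 38189793 to 38197046, plus strand), and 474 exonic bases (9.25%) are shared with the antisense gene Tmem255a, which read 0.812 to 1.04. Zbtb38 (chromosome 9, 96682770 to 96752831, minus strand) read 1.65 and 1.60 at 0 h, 1.57 and 1.53 at 24 h, 1.49 and 1.54 at 48 h, and 1.60 and 1.62 at 72 h. Both its 24 h and its 48 h libraries lay below 0 h, at lower-floor folds of 0.959 and 0.940 that did not pass (limma adjusted p = 0.766 and 0.742). The residual spread of Zbtb38 was larger than that of 1.1% of genes tested, with its level at the 23.6th percentile. That spread is on log2(signal + 1), which also understates the spread of low genes. Zbtb4 (chromosome 11, 69765912 to 69784023, plus strand) read 0.654 and 0.657 at 0 h, 0.520 and 0.634 at 24 h, 0.622 and 0.609 at 48 h, and 0.639 and 0.708 at 72 h. Its lower-floor log2 differences were -0.16, -0.078 and 0.032 at 24, 48 and 72 h (limma adjusted p = 0.615, 0.889 and 0.939).

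Genes that act with the readers were listed by complex. Of 13 NuRD subunits, 11 were tested and 1 rose at 72 h, Mta3, a scaffold subunit, where 2.01% of all genes passed. The mean of Mta3 at 0 h, 0.9485, was below the filter of 1, which it reached (1.153 over all libraries) through the later times. Mta3 read 0.934 and 0.963 at 0 h, 1.116 and 1.06 at 24 h, 1.199 and 1.192 at 48 h, and 1.31 and 1.46 at 72 h, so each time stood above the time before it. The ratio of mean signals was 1.46. On log2(signal + 1), which understates changes of low genes, the difference was 0.29 (SE 0.049, 95% interval 0.17 to 0.41, limma adjusted p = 0.0364). In the lower-floor fit, on log2(signal + 0.1), it was 0.50 (limma adjusted p = 0.0342). The slope of Mta3 on log2(signal + 1) was 0.094 per 24 h (limma adjusted p = 0.0178). The call at 72 h was lost without either 0 h library (adjusted p = 0.221 and 0.194), either 48 h library (0.0845 and 0.0856) or either 72 h library (0.102 and 0.197), and was kept without either 24 h library. The slope's call was lost without either 0 h library (adjusted p = 0.105 and 0.0947) or either 72 h library (0.0535 and 0.0706). At an unadjusted p under 0.05, 2 of the 11 passed at 72 h, beside 15.7% of all genes. The median log2 difference of the 11 at 72 h was -0.012. The related genes Mta1 and Mta2 had higher mean signals than Mta3 over all libraries, at 5.61 and 3.44. Neither was called, with ratios of mean signals at 72 h of 1.14 and 1.03. Both 72 h libraries of each lay above 0 h, while 49.8% of all genes tested did not overlap in either direction.

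**Figure D4:**
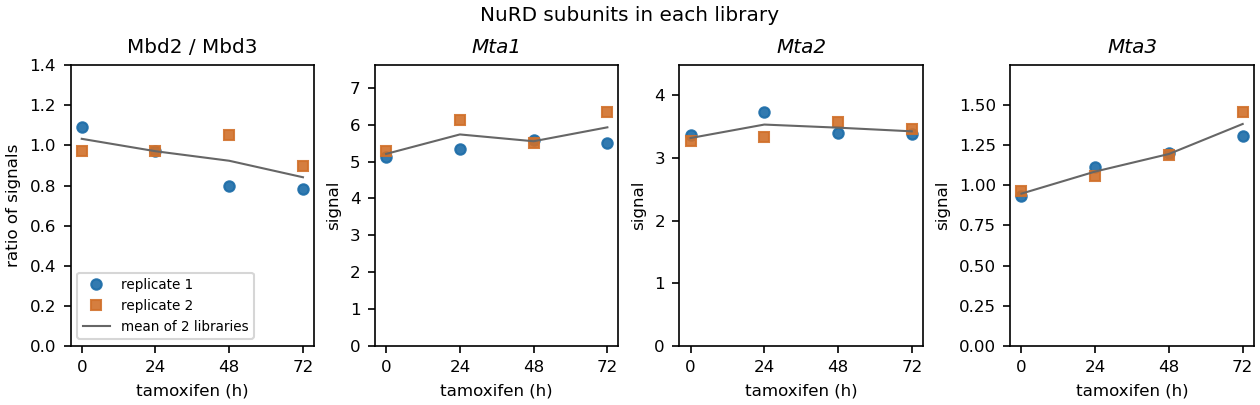
Against hours of tamoxifen, the first panel shows the ratio of Mbd2 to Mbd3 signal and the other panels the signal of Mta1, Mta2 and Mta3, all from 0, with circles and squares for replicate numbers and a line through the means of 2 libraries. Mta3 goes from 0.934 and 0.963 at 0 h to 1.31 and 1.46 at 72 h, and the Mbd2 to Mbd3 ratio from 1.09 and 0.974 to 0.784 and 0.898.

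Of 8 Kaiso partners (corepressor genes and Ctnnd1, a catenin), 7 were tested, and 0 passed in limma. At an unadjusted p under 0.05, 2 passed at 24 h and 2 at 72 h, beside 13.2% and 15.7% of all genes. Tbl1xr1, a subunit of the NCoR corepressor, read 2.195 and 2.07 at 0 h and 1.67 and 1.78 at 24 h (log2 difference -0.20, limma adjusted p = 0.172), with 1.87 to 1.92 in the 4 later libraries. Ncor1 read 2.49 and 2.67 at 0 h and 2.15 and 2.23 at 24 h (log2 difference -0.16, limma adjusted p = 0.235), and at 72 h it was at 2.60 and 2.64. Cbfa2t3, a corepressor that binds Kaiso and is below the first filter, was chosen for mention after its values were seen. It read 0.128 and 0.0998 at 0 h and 0.283 and 0.356 at 72 h, with a log2 difference of 0.97 (limma lower floor, adjusted p = 0.0446). Its call was kept in 3 of 13 alternatives, and without either 0 h library it was lost (adjusted p = 0.195 and 0.247).

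Of 9 PR-DUB genes, 7 were tested and 0 passed in limma (at an unadjusted p under 0.05, 1 at 72 h, beside 15.7% of all genes). Ogt, the enzyme that adds N-acetylglucosamine to proteins, read 2.06 and 2.26 at 0 h and 1.56 and 1.68 at 72 h (log2 difference -0.27, limma adjusted p = 0.0713). Asxl1 read 2.49 and 2.62 at 0 h, 1.74 and 2.54 at 24 h, 2.26 and 2.01 at 48 h, and 2.77 and 2.95 at 72 h, so it lay below 0 h at 48 h and above it at 72 h. Of 8 other MBD-domain, Mbd1 partner and Uhrf genes, 6 were tested and 0 passed (unadjusted, 1 at 24 h and 1 at 48 h, beside 13.2% and 10.5% of all genes). Baz2b (limma adjusted p = 0.345 at 24 h) and Atf7ip, a Setdb1 cofactor, had the smallest F test p. Of 10 repair partners of Mbd4, 7 were tested and 0 passed (unadjusted, 1 at 24 h and 1 at 48 h, beside the same shares). Polb, the gap-filling polymerase, read 2.53 and 2.196 at 0 h and 2.94 and 3.16 at 24 h (limma adjusted p = 0.305), while 72 h, with 2.93 and 2.30, overlapped with 0 h. Lig3 overlapped with 0 h at every time. Of 7 reported targets of the zinc finger readers, 3 were tested and 0 passed, adjusted or not. Cdkn1a read 10.5 to 14.8 and Mta2 3.28 to 3.74. Of 12 germline genes that promoter methylation silences in other cells, 0 reached the signal filter and 2 were in the lower-floor fit, Brdt (0.440 to 0.665) and Sycp3 (0.130 to 0.235), with 0 called.

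**Figure D5:**
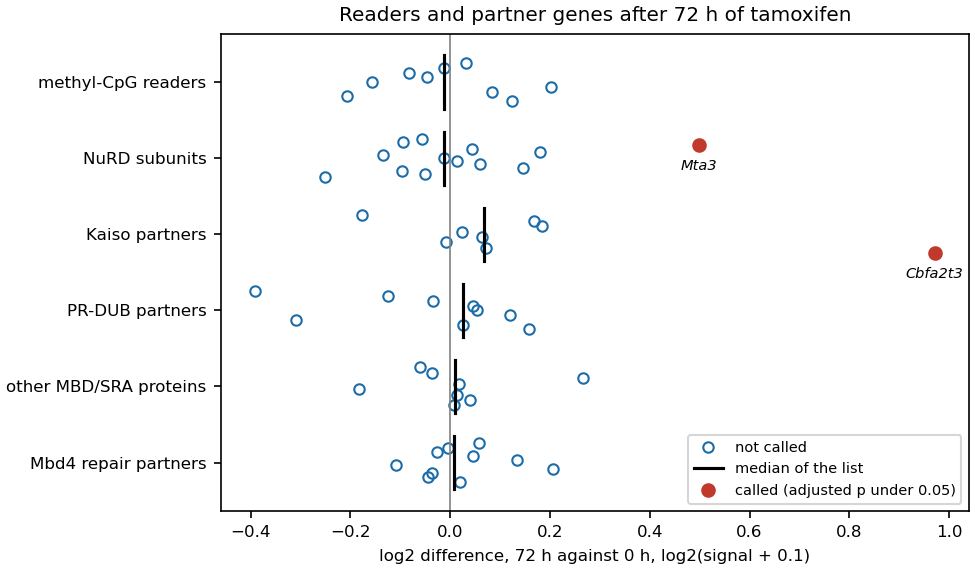
Log2 difference at 72 h against 0 h (horizontal axis, limma lower floor, log2(signal + 0.1)) for each gene of the readers and 5 partner lists, with open points for genes not called, filled points for genes called and a black bar at the median of each list. The 9 readers lie between -0.21 and 0.20, and the genes called are Mta3 at 0.50 and Cbfa2t3 at 0.97.

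By likeness over the 8 libraries on the log2 scale, Mbd2 tracked 0610040J01Rik (Pearson r = 0.974), Atad1 (0.958) and Rbx1 (0.953) most closely. Mbd4 tracked Kcnk3 (0.969), Kansl1 (0.961) and Tbc1d22a (0.958). These are the highest of 9606 genes, over libraries that share the 4 times, and are given as a description with n = 8 and no test.

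Across the 8 libraries summed signal was 164236 to 178548, and 9516 to 9608 genes had a signal of at least 1. Read depth is not known, so no counting interval is given. The label of a corticotrope line was matched by Pomc at 499 to 679, Tbx19 at 16.3 to 23.2 and Neurod1 at 3.93 to 5.08, while the receptor Crhr1 was at 0.0354 to 0.129. Pax7 was present in every library at 12.6 to 14.4. Of the other melanotrope markers listed, Pcsk2 read 0.325 and 0.294 at 0 h and 0.845 and 0.822 at 72 h. Oacyl read 0.0129 and 0.0171 at 0 h and 0.618 and 0.635 at 72 h. The 24 and 48 h libraries of both genes lay between these values. Both genes are below the first signal filter, and Drd2 was at 0 in every library. Of 5 other pituitary hormone genes, Prl, Tshb and Fshb were listed at 0 in every library, Gh was at 0.00801 in 1 library and 0 in the others, and Lhb read 0.180 to 0.236. The summed signal of 4 immune markers was 0.562 in both 0 h libraries and 0.657 to 0.733 at 72 h. At 24 and 48 h it was 0.615 to 0.634 and 0.561 to 0.610. Most of this sum was Csf1r, at 0.446 to 0.563, with Cd3e at 0. The summed signal of 5 fibroblast markers was 0.404 to 0.524 at 0 h and 0.332 to 0.413 at 72 h. At 24 and 48 h it was 0.389 to 0.555 and 0.233 to 0.286. Most of this sum was Col1a1, at 0.222 to 0.537, with Col1a2 at 0. The part of other cells in the reader values was not tested. In bulk RNA, fewer cells of a type and less RNA per cell cannot be told apart.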

How the data were processed

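RNA was sequenced from AtT-20 ER-Pax7 cells at 4 times, 2 libraries each, after ribosomal depletion, per the labels' protocols. The authors deposited 1 signal per gene and library, read here as normalized mean coverage over merged exons; its scaling rule, counting tool, strand use and annotation release are stated in none of the labels or headers used here. Per the submitters' processing notes, the tools were HISAT2 2.2, SAMtools 1.12 and deepTools 3.5, and the build was GRCm38 (mm10). The labels' molecule field names genomic DNA, while the protocol names RNA. Gene coordinates come from the deposited exon lists and equal GENCODE M21 for all 9 readers.

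The 9606 genes whose mean signal reached 1 were tested with limma 3.58.1 in R 4.3.3 on log2(signal + 1), group only, intensity trend in the prior, 4 residual degrees of freedom (6 for the slope over hours), Benjamini-Hochberg adjustment over all tested genes, threshold 0.05. Folds on this scale understate changes of low genes. The lower-floor fit kept 17871 genes whose mean reached 0.1 and used a pseudocount of 0.1. The script was tested on simulated data. Members and lists were chosen with earlier results of these data known. Named genes were all 9 readers, each partner list's called genes or else the 2 with the smallest F test p, and the 3 genes most like each of the 2 readers with the widest range of time means. Alternatives were another pseudocount, no filter, the lower floor, trimmed mean scaling (TMM), quantile normalization, a replicate block, no intensity trend and each library left out.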

Additional observations from a re-analysis of the deposited data

How the results depend on the processing

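Over 28 fits 0 readers were called, with a smallest adjusted p of 0.233 (limma). Of 665 reader values under alternatives, 640 kept direction and call and 25 changed direction, the largest of these at a size of 0.0516. These 25 fell in 14 of the 45 reader results. The 640 are not a measure of robustness, because many of them could not change direction. F test values carry no direction. For a difference from 0 h, a replicate block, no intensity trend or a library left out at another time returns the same estimate. For readers above the signal filter, no filter does so too. Slopes use every library and move with each one left out. Mbd2 at 24 h changed direction to -0.0110 with trimmed mean scaling and -0.0124 with quantile normalization, Mbd6 at 24 h to -0.0155 and -0.0165, and Zbtb33 at 48 h to -0.0025 under both. With 1 library left out, log2 differences ranged over -0.0229 to 0.124 for Mbd1 at 48 h, -0.0501 to 0.0631 for Mbd2 at 24 h and -0.226 to 0.0452 at 48 h, -0.0418 to 0.183 for Mbd3 at 72 h and -0.0062 to 0.0456 in its slope, -0.0195 to 0.0085 for Mbd4 at 48 h, -0.0516 to 0.0525 for Mbd6 at 24 h and -0.0736 to 0.0043 at 72 h, -0.0422 to 0.0233 for Zbtb33 at 24 h and -0.0479 to 0.0513 at 48 h, -0.022 to 0.0069 for Zbtb38 at 72 h and -0.011 to 0.0039 in its slope, and -0.0323 to 0.0958 for Zbtb4 at 72 h and -0.0099 to 0.0371 in its slope. The cause was not tested.

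Counts of all called genes were 22 at 24 h, 53 at 48 h, 193 at 72 h, 33 in the F test and 188 in the trend. Without a filter they were 4, 5, 63, 6 and 88, with more genes tested (37675). The lower floor gave 98 at 48 h and 63 in the F test. With 1 library left out, the counts ranged over 2 to 104, 2 to 98, 9 to 319, 3 to 167 and 25 to 329; fewer samples enter these fits. Deviations of same-numbered libraries correlated at 0.177, 0.337 and 0.402 among 0, 24 and 48 h and at -0.016 to 0.099 with 72 h, so pairing by number was not seen across all times and was not used; with the replicate block the counts were 18, 24, 154, 26 and 146, 0 readers passed, and the Mta3 call at 72 h was lost (limma adjusted p = 0.0593; 0.0984 without a filter). Mta3 at 72 h was kept in 7 of 15 alternatives and its slope in 11 of 15. Depth is not given, so what it limits is not known.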
